A study of Mus musculus with 11 samples.

Results

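Transcription factors of pulmonary neuroendocrine cells are described here through 8 genes: Insm1, Neurod1, St18, Myt1, Hes6, Nkx2-2, Rfx6 and Meis2. They were taken by gene symbol as 8 of the 24421 rows of a table of RNA sequencing counts. They were selected partly on the counts that are compared below, so that comparison is given as a description, with no test. The libraries came from lung epithelium of mouse embryos at E17.5, held on magnetic beads by the surface protein EpCAM. There were 6 Control libraries and 5 libraries labelled PRDM3/16KO, called the knockout here. In the knockout, floxed alleles of Prdm16 and Prdm3 (the table's Mecom) were recombined by the ShhCre allele, which acts in Shh-expressing cells, the lung epithelium among them. The cross was of Prdm3 fl/fl, Prdm16 fl/wt, ShhCre+ males with Prdm3 fl/fl, Prdm16 fl/fl females. Offspring of both groups would therefore carry floxed alleles, and the labels do not say whether the Control embryos carried Cre. They name no litter or sex and do not say that each library is a separate embryo, so the p-values below measure only the spread between these libraries.

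Pulmonary neuroendocrine cells are rare sensory and secretory cells of the airway epithelium, found singly or in clusters called neuroepithelial bodies. Their fate is held back in neighbouring cells by Notch signalling through HES1, a basic helix-loop-helix (bHLH) repressor. Zinc-finger factors such as INSM1 act with bHLH and homeodomain factors to establish the genes for hormones, granules and exocytosis, a set of regulators shared in large part with endocrine cells of the gut and pancreas.

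The upstream sequences of 3 of the genes are shown because they span the patterns described below: Nkx2-2 was nearly absent and Meis2 low in Control and both were higher in the knockout, while Hes6 was abundant in both groups. Each is the stretch of 250 bases before a RefSeq transcription start (build GRCm38.p6, minus strand in all 3), read 5′ to 3′ in the direction of the gene. Capitals mark exact matches, on either strand, to the 5 motifs searched. The windows are chr2:147186403-147186652 for Nkx2-2, chr1:91414039-91414288 for Hes6 and chr2:116064620-116064869 for Meis2.
Nkx2-2: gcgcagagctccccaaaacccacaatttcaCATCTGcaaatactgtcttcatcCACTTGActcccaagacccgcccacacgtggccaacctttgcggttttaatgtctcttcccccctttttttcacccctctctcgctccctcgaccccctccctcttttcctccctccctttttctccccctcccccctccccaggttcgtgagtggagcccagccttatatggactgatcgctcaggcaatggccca
Hes6: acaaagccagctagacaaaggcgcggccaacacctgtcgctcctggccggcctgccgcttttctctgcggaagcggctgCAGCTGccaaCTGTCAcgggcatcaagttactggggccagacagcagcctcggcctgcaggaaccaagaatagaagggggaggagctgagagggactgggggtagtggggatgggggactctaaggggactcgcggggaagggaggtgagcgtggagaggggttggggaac
Meis2: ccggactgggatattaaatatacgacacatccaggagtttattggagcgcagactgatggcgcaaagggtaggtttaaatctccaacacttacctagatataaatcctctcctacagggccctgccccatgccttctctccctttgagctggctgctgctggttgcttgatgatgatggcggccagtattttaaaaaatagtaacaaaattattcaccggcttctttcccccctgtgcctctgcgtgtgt

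The motifs searched were CAGCTG, an E-box type bound by bHLH factors, and CAGATG, which reads CATCTG on the other strand, a type bound by NEUROD1. MEIS proteins bind TGACAG, which reads as CTGTCA when reversed. NKX2-1 binds CACTTGA, which reads as TCAAGTG when reversed. The last was GAAGATGAG, bound by EVI1, the protein of Mecom, which reads as CTCATCTTC when reversed. In this order, among 32851 windows of the same length they were present in 13.0%, 14.4%, 15.9%, 2.68% and 0.347%. The Hes6 window held CAGCTG and CTGTCA, ending 166 and 156 bases before the start, and the window of a second Hes6 start, chr1:91413223-91413472, held CAGCTG too. The Nkx2-2 window held CATCTG and CACTTGA, ending 215 and 191 bases before the start. In the Meis2 window none of the 5 motifs was found. Of the other factors, TGACAG was found before the first of 3 Myt1 starts and before the Rfx6 start, and no match was found before the Neurod1 start. The matches shown do not overlap each other. They describe letters only, and binding was not measured. Insm1 and St18 had no window.

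Of the 24421 rows, 13916 genes passed edgeR's filter on low counts. Library totals ran from 6065906 to 7869787 counts. Levels are CPM, a gene's share of each library's counts on a scale common to all libraries, after adjusting library sizes with TMM factors, which trim extreme genes. Fold changes are on the log2 scale and positive where the knockout was higher. In edgeR's quasi-likelihood test, at a Benjamini-Hochberg adjusted p of 0.05, 2936 genes were higher in the knockout (21.1%) and 3037 lower (21.8%). With scaling by library size alone the split was 3992 and 2095. The targeted genes were counted in every library: Prdm16 at 202 ± 21.9 CPM in Control and 166 ± 12.2 in the knockout (edgeR, adjusted p = 0.00905, and 0.0576 with library size alone), and Mecom at 219 ± 9.98 and 340 ± 16.0 CPM (edgeR, adjusted p = 3.26e-07; SD, n = 6 and 5). These are whole-gene counts, in which transcripts without the deleted exons would still appear. Epcam was at 252 ± 25.3 and 261 ± 10.8 CPM. In this bulk RNA, fewer or more cells of a type cannot be told apart from less or more RNA per cell.

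The 8 factors fell into separate patterns. Insm1, St18 and Meis2 passed the filter on low counts and were higher in each knockout library than in any Control library. Hes6 passed it and was lower in each knockout library. Myt1, Nkx2-2 and Rfx6 had too few counts to pass, and Neurod1 had no count at all. Thus 4 of 8 were fitted, 3 with calls in the higher direction and 1 in the lower. The background is the 21.1% and 21.8% above, and ranges without overlap were found for 28.5% of all genes fitted. Nothing is read from the members' own counts of calls, since the choice of members used them and a gene near 0 in Control could pass the filter only by being higher in the knockout.

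**Figure D1:**
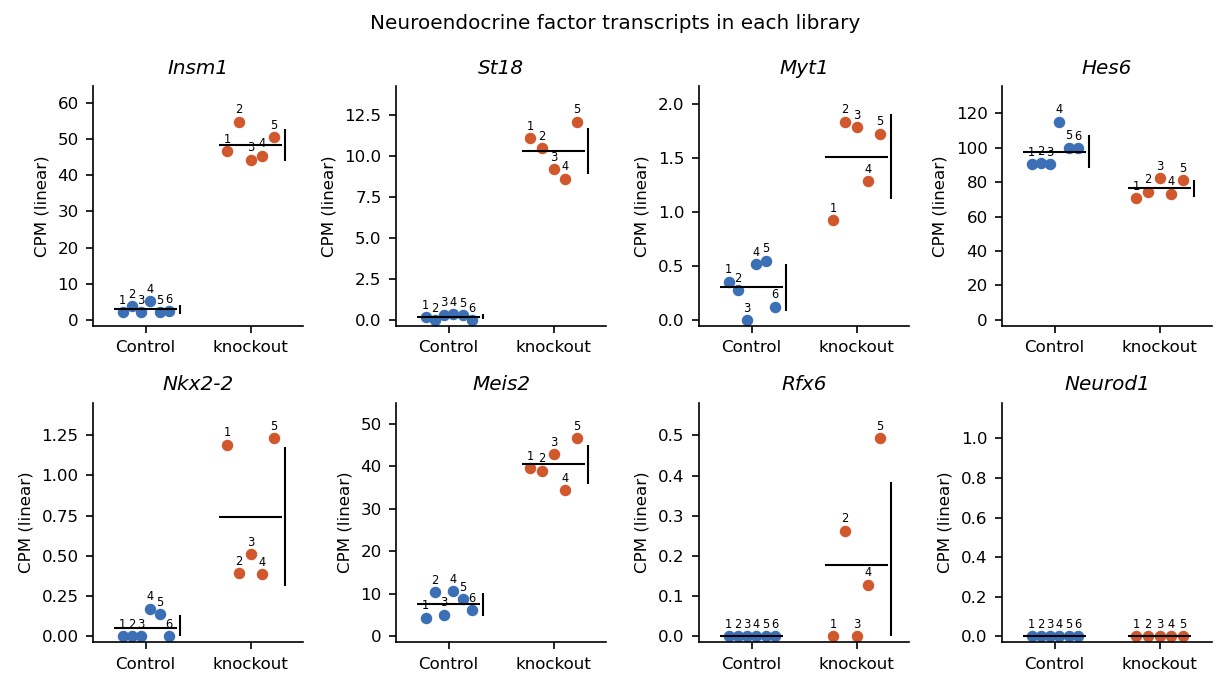
CPM of each factor in each library on linear axes that differ between panels; digits are replicate numbers, horizontal lines group means and vertical lines SD (n = 6 Control, 5 knockout). Insm1, St18, Myt1, Nkx2-2 and Meis2 sit higher in all 5 knockout libraries, Hes6 sits lower, Rfx6 has counts in 3 knockout libraries and Neurod1 in none.

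Insm1 encodes a zinc-finger repressor that endocrine cells of lung, gut and pancreas require in mice. The gene is a single exon on chromosome 2, from 146221921 to 146225020 (mm10, plus strand, GENCODE M21). In Control libraries 1 to 6, in order, Insm1 stood at 2.13, 3.87, 2.08, 5.20, 2.07 and 2.47 CPM. In knockout libraries 1 to 5 it stood at 46.7, 54.8, 44.3, 45.4 and 50.6 CPM. Every knockout library was far above the Control libraries, of which 4 and 2 were the highest. The means were 2.97 ± 1.29 and 48.4 ± 4.30 CPM, a log2 fold change of 4.03 (SE 0.17), which was the 73rd highest of the 13916 genes. Relative to the mean, the Control libraries varied more than the knockout libraries, with a coefficient of variation of 43.5% against 8.90%, where counting error alone gives 22.6% and 5.16%.

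St18 and Myt1 encode related zinc-finger proteins of the MyT family, which act in neurons and, in mouse pancreas, in endocrine cells. St18 lies on chromosome 1 from 6487231 to 6860940 (plus strand). The Control libraries together held 7 St18 counts and the knockout libraries 401. In Control its CPM was 0.178, 0, 0.320, 0.347, 0.275 and 0, and in the knockout it was 11.1, 10.5, 9.22, 8.62 and 12.1. St18 was thus at or near 0 in every Control library and readily counted in every knockout library. The ratio of summed counts, knockout over Control, was 59.4 (95% counting interval 28.5 to 149), and the fitted log2 fold change of 5.75 (SE 0.33) was the 13th highest. Intervals here cover counting error only.

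Myt1 lies on chromosome 2 from 181763332 to 181827797 (plus strand) and was a rare transcript. Summed over libraries, it had 12 counts in Control and 59 in the knockout. Its CPM was 0.355, 0.277, 0, 0.520, 0.551 and 0.123 in Control and 0.928, 1.84, 1.79, 1.29 and 1.73 in the knockout. The groups did not overlap, although knockout library 1 lay nearer to the Control libraries than the others did. The ratio of summed counts was 5.09 (95% counting interval 2.71 to 10.4). Myt1 was therefore on the same side as St18 but much less abundant in the knockout: per kilobase of exon, the levels were 0.211 ± 0.0549 CPM for Myt1 and 1.60 ± 0.218 for St18.

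Nkx2-2, Rfx6 and Neurod1 are factors of endocrine cells of the gut and pancreas in mice. NKX2-2 is a homeodomain protein of the family of the lung factor NKX2-1. Its gene lies on chromosome 2 from 147177546 to 147194243 (minus strand) and overlaps 2 antisense genes, Nkx2-2os and 6430503K07Rik. Those antisense genes had 0 counts in Control and 1 and 2 in the knockout, and the use of strand in the authors' counting is not given in the sources used here. Nkx2-2 itself had 2 counts in all of Control and 29 in all of the knockout. Its CPM was 0, 0, 0, 0.173, 0.138 and 0 in Control and 1.19, 0.394, 0.512, 0.386 and 1.23 in the knockout. Knockout libraries 1 and 5 were the highest, and all 5 knockout libraries exceeded the Control libraries. The ratio of summed counts was 15.0 (95% counting interval 3.8 to 130).

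RFX6, a winged-helix protein, marked the edge of detection. Rfx6 (chromosome 10, 51677756 to 51730432, plus strand) had no count in the 6 Control libraries and 7 in the knockout, where libraries 2, 4 and 5 stood at 0.263, 0.129 and 0.493 CPM and libraries 1 and 3 at 0. The groups overlapped at 0. Set against the 3 counts that a total of 0 allows over the Control group, Rfx6 was at least 2.42-fold higher in the knockout, a bound that takes the 7 counts as they stand, without their own counting error.

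NEUROD1 is a bHLH factor of neuroendocrine cells and of neuroendocrine lung tumours. Neurod1 (chromosome 2, 79452521 to 79456751, minus strand) had 0 counts in all 11 libraries. A count of 0 allows up to 0.0745 CPM in the Control group and 0.0772 CPM in the knockout group. At this depth, then, Neurod1 was not detectable in either group. In GENCODE, of its 2729 exon bases, 201 are shared with Cerkl on the same strand and 154 with a noncoding gene on the other. Reads in those stretches may have been assigned to neither gene, and most of the exon bases lie outside them. Cerkl had 3 counts in Control and 6 in the knockout.

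Hes6 went the other way. HES6 is a bHLH-Orange protein known in mice to counter HES1 and to favour neuronal differentiation. Its gene lies on chromosome 1 from 91411483 to 91414038 (minus strand). The Control libraries held Hes6 at 90.4, 90.9, 90.5, 115, 99.9 and 99.5 CPM, and the knockout libraries held it at 70.8, 74.4, 82.2, 73.3 and 81.0 CPM. All knockout libraries lay below the Control libraries, by a small step: the highest knockout library was at 82.2 CPM and the lowest Control library at 90.4. The means were 97.7 ± 9.69 and 76.4 ± 5.01 CPM, a log2 fold change of -0.36 (SE 0.074). With scaling by library size alone it was -0.25, while the median of all genes moved from 0.0023 to 0.11. Hes6, which had the most counts of the factors, also had the lowest coefficients of variation, 9.91% in Control and 6.56% in the knockout. Counting error alone gives 3.94% and 4.11%, so its spread was above counting error in both groups.

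Meis2 encodes a homeodomain cofactor of the three-amino-acid-loop class, which binds DNA with PBX proteins. It lies on chromosome 2 from 115863064 to 116065839 (minus strand). The Control libraries held Meis2 at 4.44, 10.4, 5.12, 10.6, 8.81 and 6.17 CPM, and the knockout libraries held it at 39.5, 39.0, 42.9, 34.4 and 46.6 CPM. The lowest knockout library was far above the highest Control library, and Control libraries 2 and 4 were again the highest of their group. The means were 7.58 ± 2.69 and 40.5 ± 4.59 CPM, a log2 fold change of 2.41 (SE 0.18). MEIS factors are also made in mesenchymal cells, and markers of mesenchyme differed between the groups. Of the 12 fitted, of 14 listed, 7 were higher and 0 lower, beside 21.1% and 21.8% over all genes fitted. Their summed level was 427 to 699 CPM in Control and 656 to 1231 CPM in the knockout, with none of the 14 at 0 throughout. With the mean mesenchymal level as a covariate the Meis2 log2 fold change was 2.54. Knockout library 3, which had the highest mesenchymal sum, was at 42.9 CPM for Meis2, the next highest of the knockout libraries after library 5 at 46.6. Since the mesenchymal level itself differed between the groups, the covariate fit cannot tell it apart from the knockout. The part of mesenchymal cells in the Meis2 values was not tested.

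Levels of the factors can be ordered only per length of exon. In Control, Hes6 stood at 54.1 ± 5.36 CPM per kilobase, Insm1 at 0.958 ± 0.417 and Meis2 at 0.630 ± 0.223, the last pair closer than the SD of Insm1, though not than that of Meis2. Myt1 (0.0423 ± 0.0302), St18 (0.0289 ± 0.0241) and Nkx2-2 (0.0180 ± 0.0282) followed and were not apart beyond their spread. In the knockout, Hes6 was still first at 42.2 ± 2.77 CPM per kilobase. Insm1 (15.6 ± 1.39), Meis2 (3.36 ± 0.381) and St18 (1.60 ± 0.218) came next, each apart from its neighbours. Nkx2-2 (0.259 ± 0.150) and Myt1 (0.211 ± 0.0549) lay within each other's spread, and Rfx6 was last of those counted at 0.0441 ± 0.0518. St18 thus stood among the genes nearest to 0 in Control and next below Meis2 in the knockout.

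Other proneural and endocrine factors, from a list of 25, were mostly not counted enough to test. The 7 fitted had 5 higher in the knockout, 0 lower and 2 not called, beside 21.1% higher and 21.8% lower over all genes fitted. Their median log2 fold change was 2.15, beside 0.0023 over all genes. Nothing is read from that count and median, since factors near 0 in Control, such as Atoh1, could pass the filter only through the knockout, and 18 of the 25 did not pass. Atoh1, a bHLH factor of hair cells and intestinal secretory cells, rose from 0.313 ± 0.166 to 10.3 ± 1.72 CPM (5.03; edgeR, adjusted p = 6.57e-10). Prox1, a homeodomain factor, rose from 11.4 ± 3.26 to 50.6 ± 2.81 CPM (2.15; edgeR, adjusted p = 1.13e-08). The zinc-finger factor Gfi1 (2.41; edgeR, adjusted p = 3.88e-06) and the SOX factor Sox11 (0.74; edgeR, adjusted p = 8.35e-05) rose too. Sox4 (0.12; adjusted p = 0.501) was not called by edgeR.

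Among the 18 that missed the filter, the proneural genes Neurog1, Neurog2, Neurog3 and Neurod2 had at most 2 counts in either group, and Neurod4 and Neurod6 had none. Neurod1 was thus at 0 together with all other members of its family listed here except Neurod2, which had 1 count. With no filter on low counts, 10 of the 25 were higher, against the 5 above. In that setting 3421 of 19503 genes were higher and 3027 lower. Isl1 (18 counts in Control, 53 in the knockout), Lmx1b (2 and 21), Onecut1 (1 and 13) and Onecut2 (7 and 40) were among those added. Pax6 (6 and 1), Nkx6-1 (24 and 21) and Pou4f1 (22 and 32) were not called there.

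Genes of the same families were mostly near 0 in their fold change. Of 20 paralogs, 12 were fitted, 1 was higher, 2 were lower and 9 were not called, with a median log2 fold change of 0.15. The shares over all genes fitted were 21.1% higher and 21.8% lower. With library size alone or upper-quartile factors 4 were higher, and without single libraries 1 to 3. The exception in the higher direction was Meis3, from 1.72 ± 0.628 to 9.78 ± 1.40 CPM (2.51; edgeR, adjusted p = 1.89e-07), close to Meis2 in its fold change. Nkx2-1 fell from 1335 ± 109 to 1098 ± 91.0 CPM (-0.28; edgeR, adjusted p = 0.01), and Nkx2-9 fell from 3.09 to 1.75 CPM (-0.82; edgeR, adjusted p = 0.00740). The Nkx2-1 call was lost with library size alone (-0.18; edgeR, adjusted p = 0.10) and with the mesenchymal covariate (-0.28; edgeR, adjusted p = 0.101). Hes1, the Notch target that HES6 counters, was at 375 ± 43.0 and 416 ± 15.5 CPM (0.15; edgeR, adjusted p = 0.137), and was called higher with library size alone (0.26; edgeR, adjusted p = 0.0105), with upper-quartile factors and without Control library 4. Rfx5 (0.14) and Rfx7 (0.11) were not called, although Rfx5 was called without Control library 6 (0.20; edgeR, adjusted p = 0.0435). Insm2 had 4 counts in Control and 9 in the knockout and Myt1l, the remaining MyT gene, had 5 in each, too few to fit.

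**Figure D2:**
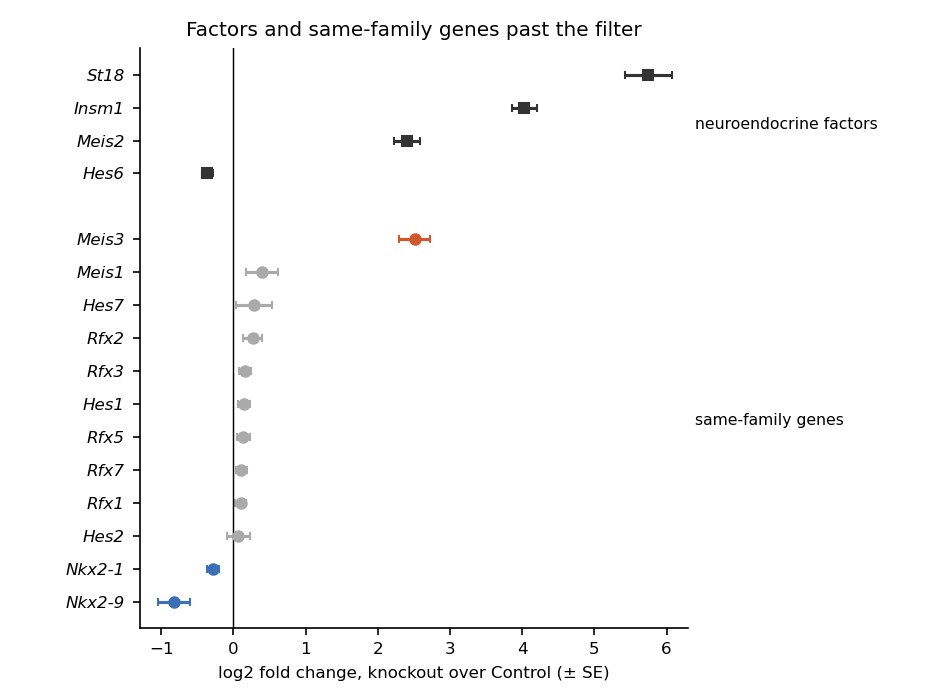
Log2 fold change, knockout over Control, with SE, of the neuroendocrine factors that passed the filter on low counts (black squares, not tested) and of same-family genes; orange is called higher, blue lower and grey not called by edgeR. St18, Insm1 and Meis2 lie between 2.41 and 5.75 and Hes6 at -0.36, while the same-family genes lie mostly near 0, except Meis3 at 2.51.

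Partners of the factors moved in both directions, beside shares over all genes of 21.1% higher and 21.8% lower. All 6 TALE partners of MEIS2 were fitted; 4 rose, 1 fell and 1 was not called. Pbx2 rose by 0.65 (SE 0.061; edgeR, adjusted p = 5.99e-07). Pknox2 (1.62; edgeR, adjusted p = 2.26e-06) and Pbx4 (0.42; adjusted p = 0.00835, and 0.0506 with the mesenchymal covariate) rose as well, Pbx3 fell (-0.70; adjusted p = 1.13e-05), and Pknox1 was at -0.03. Among the 7 E proteins and Id proteins, which pair with or sequester the partners of NEUROD1 and other bHLH factors, 3 rose and 1 fell. Tcf4 (0.35; edgeR, adjusted p = 0.00100), Id4 (0.48; adjusted p = 0.000221) and Id3 (0.44; adjusted p = 0.0148) rose and Id2 fell (-0.57; adjusted p = 2.68e-05).

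Corepressors of the kind that INSM1, HES and NKX2 proteins recruit, and those of the neuronal repressor REST, had a median log2 fold change of 0.03. Of 14, 2 rose, 2 fell and 10 were not called, beside 21.1% higher and 21.8% lower over all genes fitted. Tle3 rose (0.54; edgeR, adjusted p = 7.27e-06), as did Tle4 (0.32; adjusted p = 0.00675), while Tle2 (-0.39; adjusted p = 0.000425) and Hdac1 (-0.45; adjusted p = 0.0403) fell. The Hdac1 ranges overlapped, and its call was lost under most alternatives, for example without knockout library 1 (-0.32; edgeR, adjusted p = 0.0814).

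In the Notch pathway, which acts upstream of the factors, 8 of 21 fitted genes rose, 3 fell and 10 were not called. Over all genes fitted, 21.1% were higher and 21.8% lower. The ligand genes Dll3 (3.59; edgeR, adjusted p = 2.03e-08) and Dll1 (1.64; adjusted p = 1.16e-06), which neuroendocrine cells express, rose, as did Mfng (2.98; adjusted p = 3.26e-07), which encodes a glycosyltransferase of Notch receptors. Maml2 (1.02; adjusted p = 2.12e-08) and Notch4 (1.13; adjusted p = 6.44e-05) rose, and the target Nrarp fell (-0.93; adjusted p = 1.07e-05). Dll3 went from 0.575 ± 0.269 to 7.10 ± 1.26 CPM. Like Mfng, at 0.733 CPM in Control, Dll3 could pass the filter only through the knockout. The count of higher genes in the pathway is therefore not read as a result.

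Genes for products of neuroendocrine cells were read beside the factors. Of 30, 23 were fitted, 17 rose, 2 fell and 4 were not called, with a median log2 fold change of 2.62. Over all genes fitted, 21.1% were higher and 21.8% lower. Some of the 23, such as Dner at 0.993 CPM in Control, could pass the filter only through the knockout. The count and the median are therefore a description, and nothing is read from them. By p, Pcsk1, the prohormone convertase (3.70; edgeR, adjusted p = 1.36e-11), Nov (2.73; adjusted p = 1.25e-10), Rab3c (2.72; adjusted p = 3.75e-10), Ptprn2 (3.72; adjusted p = 4.18e-10), Cplx2 (1.58; adjusted p = 6.85e-10) and Dner (3.71; adjusted p = 1.41e-09) led. The 2 that fell were Bex2 (-2.46; edgeR, adjusted p = 7.56e-07) and Piezo2 (-1.11; adjusted p = 0.000117), named after their values were seen. Scg2 (0.50), Stx1a (-0.04) and Uchl1 (-0.24) were not called, although Scg2 was called higher with library size alone (edgeR, adjusted p = 0.0431), with limma-voom (0.0384), with the mesenchymal covariate (0.049) and without Control library 2 (0.0428) or 4 (0.015). The Insm1 log2 fold change of 4.03 was above all 23 except that of the peptide gene Calca, at 5.06, which was named after its value was seen.

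**Figure D3:**
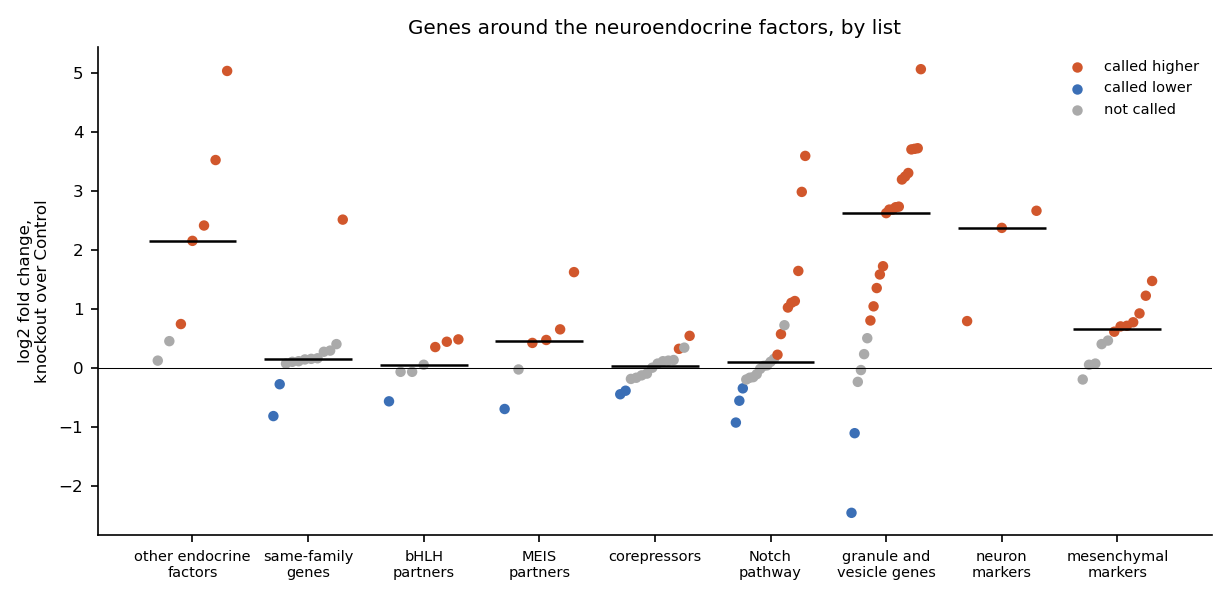
Log2 fold change, knockout over Control, of every fitted gene in 9 lists, each sorted from low to high; colours give edgeR's call and bars the list medians. The other endocrine factors and the granule and vesicle genes lie mostly above 0, with medians of 2.15 and 2.62. Some genes of both lists could pass the filter on low counts only through the knockout. The same-family genes and corepressors lie near 0, with medians of 0.15 and 0.03.

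Other cell types also make some of these factors, and their markers were read beside them. Of 12 markers of airway and autonomic neurons, 3 were fitted, and these were called higher: Ret (0.79), Elavl3 (2.37) and Elavl4 (2.66; edgeR, adjusted p = 0.00354, 8.41e-05 and 7.47e-06). Elavl3 and Elavl4 could pass the filter only through the knockout, so that count is not read as a result. The summed level of the 12 was 8.40 to 17.1 CPM in Control and 22.3 to 28.0 in the knockout. The neuronal markers Prph and Chrna3 had 16 and 11 counts in Control and 4 and 2 in the knockout. Of 7 glial markers 3 were fitted, of which 1 rose and 0 fell, beside 21.1% higher and 21.8% lower over all genes fitted. The part of neurons in the values of Insm1, St18 and Myt1 was not tested. Of 13 gut and pancreatic hormones, Ins1, Ins2, Gcg and Ppy had no count in any library, and Ghrl, the only one fitted, was at 2.15 and 2.13 CPM. Of the others, Cck had 0 and 22 counts and Tac1 had 8 and 65 in Control and in the knockout. Sst, Gip, Nts, Pyy, Sct and Iapp had at most 3 counts in either group.

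Among the remaining marker lists, tuft cells had 2 of 3 fitted genes lower and 0 higher, mesothelium 6 of 7 higher and 0 lower, endothelium 3 of 6 higher and 1 lower, and leukocytes 3 of 6 higher and 0 lower. Lung epithelium had 2 of 7 higher and 2 lower, cell cycle genes 0 of 10 higher and 1 lower, and Y-linked transcripts 0 of 4 in either direction. The shares over all genes fitted were 21.1% higher and 21.8% lower, and nothing is read from these counts. Several of these counts rest on single libraries. Without 1 library at a time, higher calls ran from 1 to 4 for leukocytes, from 1 to 2 for epithelium and from 0 to 1 for the cell cycle and tuft cells. Lower calls then ran from 1 to 2 for epithelium and from 0 to 1 for the cell cycle and glia, and all 4 Y-linked transcripts were lower without knockout library 4. By these transcripts, 4 Control libraries and 1 knockout library stood high. Among the libraries low in them the log2 fold changes of Insm1, Meis2 and Hes6 were 3.95, 2.35 and -0.31, and among those high in them 3.99, 2.23 and -0.44. For Myt1 the log2 ratio of summed counts was 3.01 and 1.83. Both Control libraries low in Y-linked transcripts had 0 St18 counts and 0 Nkx2-2 counts. Among the high libraries the St18 log2 fold change was 4.84 and the Nkx2-2 log2 ratio of summed counts was 2.27.

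The genes most like each fitted factor were found from centred log2 CPM over the 11 libraries, by the smallest root-mean-square difference. For Insm1 they were Nup62cl (difference 0.15 on the log2 scale), Krtap17-1 (0.25) and Fgf14 (0.27), with log2 fold changes of 4.23, 4.12 and 4.31. For St18 they were Atoh1 (0.35), Fam19a4 (0.39) and Apol7a (0.40), with fold changes of 5.03, 4.37 and 5.13. For Meis2 they were Ehf (0.16), an epithelial ETS factor gene, Lrp11 (0.23) and Nov (0.23), at 2.47, 2.70 and 2.73. Hes6 was most like Flot2 (0.066), Ap1s1 (0.069) and Lynx1 (0.072), at -0.39, -0.35 and -0.29. The likeness rests largely on the step between the groups. No fitted factor was among the 3 genes most like another.

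By position, 5 of the 8 factors lie on chromosome 2, and 952526 bases lie between Insm1 and Nkx2-2. The nearest protein-coding gene on each side of each factor, 16 in all, gave 10 that could be fitted. Of these 3 were higher, 2 lower and 5 not called, most by small steps. With 21.1% higher and 21.8% lower over all genes fitted, nothing is read from that count. Beside Insm1, Cfap61 was at 0.64 (edgeR, adjusted p = 0.0135, lost in 5 alternatives, with 0.514 under the mesenchymal covariate) and Ralgapa2 at -0.25 (adjusted p = 0.114, and 0.00385 without Control library 6), against 4.03 for Insm1. Beside Meis2, BC052040 was at 0.37 (edgeR, adjusted p = 0.00400). Beside Hes6, Per2, a clock gene 1944 bases away, fell from 205 ± 32.1 to 151 ± 6.10 CPM (-0.44; edgeR, adjusted p = 0.00184). The mean step was like that of Hes6, but the Control libraries were not alike. Control libraries 5 and 6 held Per2 at 171 and 158 CPM, and the other Control libraries at 222 to 230. Hes6 had no such split, with 99.9 and 99.5 CPM in Control libraries 5 and 6. Without those libraries Per2 was at -0.58. The Per2 call was lost in 3 alternatives. These were the mesenchymal covariate (-0.36; edgeR, adjusted p = 0.0945), libraries low in Y-linked transcripts (adjusted p = 0.0743) and libraries high in them (-0.49, with a single knockout library). Ilkap, on the other side of Hes6, was at 0.04.

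The neighbour of St18 moved in the opposite direction to it. Fam150a, now named Alkal1, which encodes a ligand of ALK-family receptors, ends 92500 bases before St18. It was at 1.83 ± 0.420 CPM in Control and 0.129 ± 0.0930 in the knockout, from 72 and 5 counts. It fell by 3.64 on the log2 scale (edgeR, adjusted p = 4.57e-06). Near 0 in the knockout, Fam150a could pass the filter on low counts only through Control. It was tested in 21 settings, against 27 for Pcmtd1. Pcmtd1, on the other side, was at 0.25 (edgeR, adjusted p = 0.0169, lost in 6 alternatives, with 0.0512 without knockout library 5). Beside Nkx2-2, the paired-box gene Pax1, 167682 bases away, had 0 counts in all of Control and 25 in the knockout, with counts in all 5. Against 3 counts over the Control group that is at least 8.63-fold higher, again with the knockout counts taken as they stand. Nkx2-4, on the other side of Nkx2-2, had no count in any library.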

How the data were processed

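Poly(A) RNA was sequenced from EpCAM-selected cells of lungs at E17.5, 6 Control and 5 knockout libraries, per the labels' protocols. The authors deposited raw counts per gene symbol. Per the submitters' processing notes, the tools were HTSeq 2.0, Bowtie2 2.4.2, Trim Galore 0.4.2, Picard 2.18.22, SAMtools 1.10.0, FastQC and DESeq2, with build mm10, in no stated role; annotation, strand and duplicate handling were not given in the sources used. Coordinates and exon lengths are from GENCODE M21 (same build), upstream sequences from RefSeq (GRCm38.p6).

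The members and gene lists were chosen with earlier results of these data known. All 13916 genes past filterByExpr were fitted with edgeR 4.0.16 in R 4.3.3 (TMM, quasi-likelihood F-test, robust, two-sided, Benjamini-Hochberg adjustment over these genes, threshold 0.05); adjusted p-values in the text are from it, and the steps were tested on simulated data. Each SE was derived from the unshrunk coefficient and its F value. Values are mean ± SD over libraries. Counting intervals are exact (Clopper-Pearson, 95%), and a count of 0 is taken to allow 3 counts over a group. From each list the text names called genes (the 6 of smallest p where more were called) and some of the 3 most abundant uncalled ones; other genes are named by position, or after their values were seen where so stated, as were list members given by raw counts. Some genes that the rule names are not reported here, although list counts and medians include them. Log2 CPM used a prior count of 2. Symbols of 23350 rows (95.6%) matched GENCODE M21; 27 rows bore dates as symbols and 2 symbols were repeated, and these rows stayed in the totals.

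Alternatives were other scalings (DESeq2 size factors, library size, upper quartile), DESeq2 1.42.0, limma-voom (limma 3.58.1), no filter, a filter of 1 CPM in 5 libraries, moderation that is not robust, replicate numbers as a block, covariates for Y-linked or mesenchymal transcripts, leaving out each library or Control libraries 5 and 6, libraries low or high in Y-linked transcripts (below or above a mean log2 CPM of 2.82), and a threshold of 0.01.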

Additional observations from a re-analysis of the deposited data

Results flagged for a closer look

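A single value stood far from the rest of its group among 65 sets of libraries examined, the gene and list levels by group, where chance flags about 5% of sets. The summed level of the mesenchymal markers was 1231 CPM in knockout library 3, against 656 to 784 CPM in the other knockout libraries, a gap of 0.777 of the group's range where Dixon's critical value for 5 libraries is 0.710. Insm1, St18 and Meis2 stood at 44.3, 9.22 and 42.9 CPM in that library, within the range of the other knockout libraries for St18 and Meis2 and just below it for Insm1.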

How the results depend on the processing

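The direction of every fitted factor held under all alternatives: log2 fold changes ran from 3.85 to 4.26 for Insm1, 2.23 to 2.54 for Meis2 and -0.44 to -0.25 for Hes6. Their median was 3.22 and ran from 2.90 to 3.51, and from 3.14 to 3.37 without single libraries. St18 ran from 4.84 upward; its highest fitted value is no bound, since both Control libraries low in Y-linked transcripts had 0 counts. Without single libraries the log2 ratio of summed counts ran from 2.11 to 2.65 for Myt1 and from 3.59 to 4.69 for Nkx2-2. The value of 4.69 was without Control library 4, which held 1 of 2 Control counts. The lowest Nkx2-2 ratio over all settings was 2.27, among libraries high in Y-linked transcripts, with 1 knockout library.

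Over all genes, 2936 higher and 3037 lower calls became 1739 and 1760 with the mesenchymal covariate, 1932 and 1821 among libraries low in Y-linked transcripts and 869 and 933 among those high in them. That last set holds 1 knockout library, so its knockout arm has no spread of its own and is assumed to vary like Control, and its counts say nothing about stability; the cause in the covariate fit was not tested. Without single libraries they ran from 2644 to 3120 and from 2620 to 3269. Over all lists but the factors, 65 higher and 16 lower calls became 34 and 6 in that same set with 1 knockout library, where the lower calls among neuroendocrine products went from 2 to 1. Of the other endocrine factors 10 were higher with no filter on low counts, against 5, in a setting where 3421 of 19503 genes were higher. With the replicate number as a block, over the libraries numbered 1 to 5, 3065 genes were higher and 3105 lower; the number pairs nothing by the labels, and correlations of same-numbered libraries ran from -0.0615 to 0.266. The sign turned for Tbx4 with the mesenchymal covariate, from 0.05 (edgeR, adjusted p = 0.898) to -0.70. Tbx4 is among the markers averaged in that covariate, so its own level is part of the adjustment. For Ptprc the sign turned among libraries high in Y-linked transcripts (-0.02), the set with 1 knockout library, and the cause was not tested. Depth limits Neurod1, Rfx6, Nkx2-2 and Myt1, which rest on few counts or none.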
